A study of Mus musculus with 32 samples.

Results

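SCO was set against DMSO vehicle in 3T3-L1 adipocytes that had all received TNF-alpha (TNF). The libraries were taken by their labels: 4 of cells given TNF and SCO for 24 h (TNF_SCO) and 4 of cells given TNF and DMSO for 24 h (TNF_DMSO), 8 of the 32 libraries of the study. All 14428 genes with enough counts, of 57186 listed, were tested. 3T3-L1 is a mouse preadipocyte line that becomes fat cells in culture. In all groups the cells were differentiated with insulin, dexamethasone and IBMX, so each group is the same line under another treatment. Another 4 groups, of 4 libraries each, served for comparison: cells given TNF with rosiglitazone (TNF_ROSI), an agonist of the nuclear receptor PPARγ, cells given TNF with CAP7 (TNF_CAP7), and cells without TNF given SCO (basal_SCO) or DMSO (basal_DMSO). SCO is not defined in the labels; an extract of Artemisia scoparia is named in the title of the series. Neither the nature of CAP7 nor any dose is stated. The labels call the libraries of a group biological replicates but name no separate cultures, so the p-values measure only the spread between these libraries, which may be technical.

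TNF binds receptors on fat cells and activates the transcription factor NF-κB, which turns on genes for chemokines, cytokines and acute phase proteins. It also lowers PPARγ and C/EBPα activity, and with it genes for lipid storage, insulin-driven glucose uptake and mitochondria, which is why TNF-treated adipocytes serve as a culture model of inflamed, insulin-resistant fat. Cells exposed to TNF can also make interferon β, which acts through a factor complex that holds STAT2 and IRF9 on a promoter element called the interferon-stimulated response element (ISRE).

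RNA was read near the 3' ends of transcripts, and the files hold counts per gene. Library totals ran from 16.5 to 30.0 M counts in TNF_SCO and from 18.3 to 26.9 M in TNF_DMSO (M, 1000000 counts). Log levels of 2 libraries correlated at 0.981 to 0.987 within a group and at 0.973 to 0.981 between the groups, a description over genes that share depth. Levels below are normalised counts per 1000000 (CPM), given by library in the order of replicates 1 to 4 or as the mean ± SD (n = 4). Differences are log2 fold changes, SCO minus DMSO, ± their standard error (n = 4 against 4). These errors use a spread per gene that was estimated over all 32 libraries. A gene is called, or said to have risen or fallen, at a Benjamini-Hochberg adjusted p under 0.05. The test was edgeR's quasi-likelihood test over all 14428 genes. Calls were also made under other settings: scaling by library size alone, no filter on low counts, a fit of only the groups compared, a replicate block, limma-voom, DESeq2, and each library left out. The 8 adipocyte markers summed to 34572 to 42909 CPM in TNF_SCO and 15021 to 17946 CPM in TNF_DMSO. The 11 leukocyte markers summed to 7.46 to 8.32 CPM in TNF_SCO and 10.8 to 14.2 CPM in TNF_DMSO, and the 8 endothelial and mural markers to 2.43 to 3.73 CPM in TNF_SCO and 2.36 to 2.92 CPM in TNF_DMSO. Of these, 3 leukocyte markers (Adgre1 and Tyrobp among them) and 1 endothelial marker (Emcn) had no count in any of the 8 libraries. Cd68 alone made up most of the leukocyte sum, with means of 6.12 CPM in TNF_SCO and 10.5 CPM in TNF_DMSO. In whole cultures fewer cells of a type and less RNA per cell cannot be told apart.

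With SCO, many genes of fat storage and of mitochondrial fuel oxidation rose, and many chemokine, interferon-stimulated and matrix genes fell. In all, 1907 genes were called higher (13.2%) and 1167 lower (8.09%), 21.3% of those tested. Changes of at least 2-fold were fewer, 465 in all (3.22%), with 342 higher (2.37%) and 123 lower (0.853%), and the median size of a called change was 0.45 on the log2 scale. The 4 and 4 libraries did not overlap for 3411 genes (23.6%). Of the calls 62.0% were higher, but 44.2% when libraries were scaled by their totals alone, which moved the median log2 difference of all genes to -0.058, against 0.012 with TMM factors. The scatter of level against change shows both directions over the whole range of levels.

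**Figure D1:**
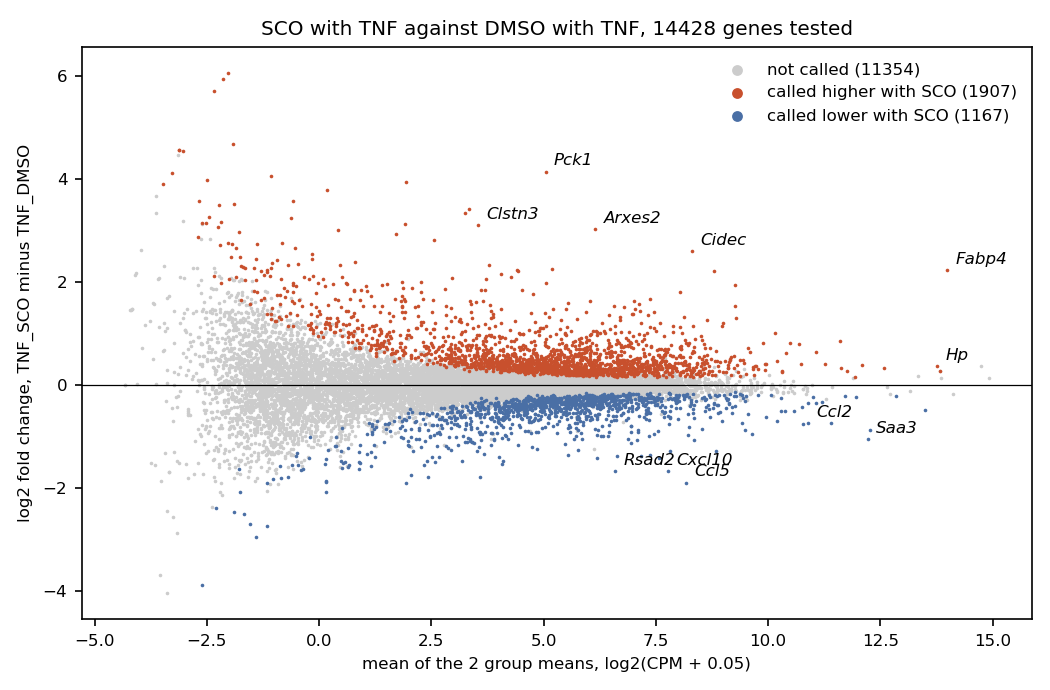
Each point is 1 of 14428 genes; the x axis is the mean of the TNF_SCO and TNF_DMSO levels as log2(CPM + 0.05), and the y axis is the log2 fold change, TNF_SCO minus TNF_DMSO. Orange points are the 1907 genes called higher with SCO, blue points the 1167 called lower, and grey points were not called; Fabp4 and Pck1 lie high and Ccl5 low among well-expressed genes.

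Genes of glyceroneogenesis and triglyceride synthesis rose. Pck1 (ENSMUSG00000027513), the enzyme that makes glycerol 3-phosphate precursors from pyruvate carbon, was at 64.4, 57.2, 57.03 and 70.8 CPM in TNF_SCO libraries and 3.55, 4.84, 3.05 and 2.92 CPM in TNF_DMSO libraries. The groups did not overlap, and the fold was 17.6 (4.14 ± 0.16 on the log2 scale, edgeR adjusted p = 1.8e-21). Gpd1 (ENSMUSG00000023019), which makes glycerol 3-phosphate from a glycolytic intermediate, was at 656, 746, 707 and 794 CPM with SCO and 160.2, 155, 142 and 167 CPM with DMSO (2.22 ± 0.095). Of 15 tested members of this list 11 rose and none fell, with a median of 0.77, against 0.012 for all genes. The acyltransferases Agpat2 (1.43 ± 0.093), Dgat1 (1.10 ± 0.077) and Dgat2 (1.11 ± 0.076), the last 2 of which complete triglycerides, were among them, as was the glycerol kinase Gk (0.68 ± 0.13).

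Lipid droplet proteins rose in 9 of 11 cases, with a median of 1.14. Cidec (ENSMUSG00000030278), which fuses droplets into larger ones, was at 497, 589.7, 548 and 533 CPM in TNF_SCO and 101, 82.1, 77.3 and 99.9 CPM in TNF_DMSO, 6.02-fold (2.59 ± 0.081). Plin1, the coat protein that gates lipase access, was at 698, 714, 715 and 699 CPM with SCO and 324, 282, 279.5 and 340.1 CPM with DMSO (1.21 ± 0.061). Both genes were about level within a group and far apart between the groups. The lipase inhibitor G0s2 (1.81 ± 0.097), the droplet budding protein Fitm2 (1.41 ± 0.079) and Plin4 (1.14 ± 0.076) also rose. Cidea, a relative of Cidec known from brown fat, rose at a low level (10.2 ± 2.09 CPM in TNF_SCO and 1.39 ± 0.520 CPM in TNF_DMSO, 2.82 ± 0.25), and was singled out after its values were seen.

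The genes of fat breakdown rose along with those of storage, 11 of 14 with none lower and a median of 1.08. Lipe, hormone-sensitive lipase, was at 917, 961, 1083 and 935 CPM in TNF_SCO and 286, 224, 237 and 269 CPM in TNF_DMSO (1.94 ± 0.079). Pnpla2, adipose triglyceride lipase, was at 824, 891, 941 and 872 CPM with SCO and 381, 346, 329 and 382 CPM with DMSO (1.29 ± 0.072). The β3-adrenergic receptor Adrb3 was low in both groups, at 23.3, 21.2, 19.2 and 19.2 CPM with SCO and 9.36, 7.54, 6.55 and 7.12 CPM with DMSO (1.44 ± 0.14). Even so its libraries did not overlap. The glycerol channel Aqp7 (1.84 ± 0.096), the antilipolytic phosphodiesterase Pde3b (1.05 ± 0.082) and the protein kinase A subunit Prkar2b (0.89 ± 0.064) rose too.

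Fatty acid uptake and binding genes rose in 9 of 13 cases and 1 fell, with a median of 0.38. Fabp4 (ENSMUSG00000062515), the fatty acid binding protein of fat cells, was the most abundant gene of the list, at 25888, 28986, 22555 and 29105 CPM in TNF_SCO and 5095, 5825, 5524 and 6325 CPM in TNF_DMSO (2.23 ± 0.11, 4.68-fold). It made up most of the sum of the 8 adipocyte markers in TNF_SCO, but not in TNF_DMSO, where Cfd was higher. The fatty acid transporter Cd36 was at 923, 909.9, 956 and 876 CPM with SCO and 291, 306, 319 and 349 CPM with DMSO (1.53 ± 0.065). Fabp5 (1.32 ± 0.089) and the acyl-CoA synthetase Acsl1 (1.01 ± 0.083) rose at least 2-fold, whereas Lpl, the lipase that frees fatty acids from lipoproteins, rose less (0.38 ± 0.081), as did its inhibitor Angptl4 (0.42 ± 0.061). The 1 decrease was the acyl-CoA synthetase Acsl5 (-0.34 ± 0.073), named after its value was seen.

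The 12 largest increases, taken where a group averaged 16 CPM or more and the libraries did not overlap, also held genes outside these pathways. Clstn3, which encodes calsyntenin 3 and in fat yields a droplet-associated form, was at 19.8, 19.8, 21.4 and 22.7 CPM in TNF_SCO and 2.97, 1.94, 2.57 and 2.12 CPM in TNF_DMSO (3.11 ± 0.12). The keratin Krt79 was at 15.3, 21.2, 17.4 and 20.1 CPM with SCO and 2.599, 1.63, 1.39 and 1.32 CPM with DMSO (3.41 ± 0.18). The galactosyltransferase B3galt2 was at 17.1, 19.3, 16.7 and 15.7 CPM with SCO and 2.23, 1.27, 2.22 and 0.959 CPM with DMSO (3.34 ± 0.16). All 3 were below 3 CPM in each TNF_DMSO library and above 15 CPM in each TNF_SCO library. Arxes2, a fat cell gene induced by PPARγ, was at 125, 127, 125 and 128 CPM with SCO and 17.3, 16.3, 13.2 and 15.3 CPM with DMSO (3.03 ± 0.097), but its near-identical copy Arxes1 can share its reads. Nat8l, which makes N-acetylaspartate and is high in brown fat, was at 56.97, 66.8, 56.1 and 60.9 CPM with SCO and 12.1, 12.8, 12.4 and 13.2 CPM with DMSO (2.25 ± 0.089). The aldehyde dehydrogenase Aldh3b2 (2.32 ± 0.15), the desaturase Scd3 (2.24 ± 0.26) and the hydrolase Cmbl (2.21 ± 0.13) complete the 12 with Pck1, Cidec, Fabp4 and Gpd1. Scd3 resembles Scd1 and Scd2, so its count is uncertain.

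**Figure D2:**
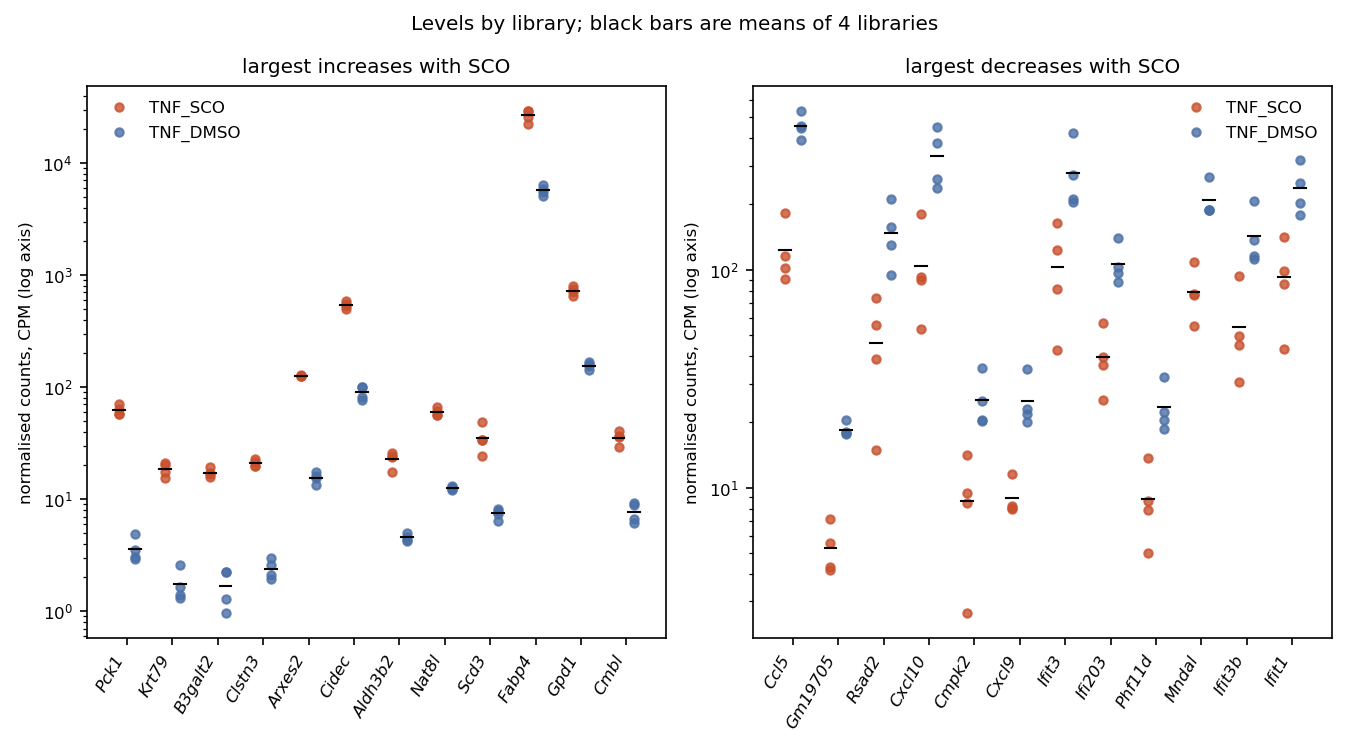
Levels in each library of the 12 genes with the largest increases (left) and the 12 with the largest decreases (right); the y axis is CPM on a log scale, points are single libraries (orange TNF_SCO, blue TNF_DMSO) and black bars are means of 4. The groups are apart for each gene, as the choice required, with a tight spread for Arxes2 and Nat8l and a wide one for Rsad2, Cmpk2 and Ifit3.

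The factors that set the fat cell state did not move as 1 block. Pparg (ENSMUSG00000000440), the receptor that drives fat cell genes, was at 227, 225, 173 and 202 CPM in TNF_SCO and 217, 213, 207 and 217 CPM in TNF_DMSO. Its groups overlapped and it was not called (-0.049 ± 0.078, 95% interval -0.21 to 0.11, edgeR adjusted p = 0.73). Cebpa, its partner factor, was at 134, 151, 139 and 143 CPM with SCO and 49.6, 45.8, 48.3 and 52.5 CPM with DMSO (1.53 ± 0.086, 2.89-fold). The coactivator of mitochondrial genes Ppargc1a was at 18.6, 19.6, 23.8 and 21.6 CPM with SCO and 10.97, 7.899, 7.63 and 7.04 CPM with DMSO (1.32 ± 0.15), and Ppargc1b (0.99 ± 0.12) and the receptor Esrra (1.002 ± 0.081), which work with it, rose by about as much. Klf15 (0.97 ± 0.11) and the lipogenic factor Srebf1 (0.53 ± 0.086) rose, while Mlxipl (ChREBP), the factor that responds to glucose, had 0.47 ± 0.20 and was not called (edgeR adjusted p = 0.088), but was called higher with no filter on low counts and without replicate 3 of TNF_SCO or replicate 3 of TNF_DMSO. Of 22 tested factors 12 rose, and the 1 that fell was Cebpd (-0.79 ± 0.10), an early adipogenic factor that also responds to inflammation, named after its value was seen.

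Of 10 tested adipokine genes 4 rose and none fell, with a median of 0.20. Adipoq, which encodes adiponectin, was at 3639, 3556, 3439 and 3376 CPM in TNF_SCO and 2669, 2655, 2699.6 and 3192 CPM in TNF_DMSO (0.32 ± 0.071), with replicate 4 of TNF_DMSO nearest to the SCO libraries. Nrg4, a growth factor released by brown fat, was at 8.98, 14.8, 9.505 and 10.1 CPM with SCO and 2.89, 2.905, 2.84 and 3.28 CPM with DMSO (1.86 ± 0.15). Apln (0.42 ± 0.079) and Retn (0.32 ± 0.11), which encode apelin and resistin, rose. The Retn call was lost with library size alone and without replicate 1, 2 or 4 of TNF_SCO or replicate 1, 2 or 3 of TNF_DMSO (edgeR adjusted p of 0.060 to 0.17). Adipsin (Cfd) was not called, at 6372 ± 820.5 CPM with SCO and 6530.5 ± 565 CPM with DMSO (-0.036 ± 0.090, 95% interval -0.22 to 0.15).

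Fatty acid synthesis genes rose in 15 of 16 cases, with a median of 0.51. Scd1, the main desaturase, was at 3787, 4079.7, 4082 and 4108 CPM in TNF_SCO and 2294, 2077, 2128 and 2373 CPM in TNF_DMSO (0.86 ± 0.086). Thrsp, a nuclear regulator of lipogenesis, was at 19.01, 20.7, 18.2 and 22.6 CPM with SCO and 9.03, 6.57, 7.39 and 9.27 CPM with DMSO (1.31 ± 0.16). Further enzymes rose: Fasn (0.47 ± 0.12), which builds palmitate, Acly (0.30 ± 0.067), which supplies acetyl-CoA, and Acss2 (0.95 ± 0.086), which makes it from acetate. The fall was in the elongase Elovl6 (-0.42 ± 0.15), named after its value was seen, and its call was lost without replicate 1, 2 or 3 of TNF_SCO or replicate 2 or 3 of TNF_DMSO (edgeR adjusted p of 0.057 to 0.16). Enzymes that make NADPH for this synthesis rose in 7 of 8 cases, led by Taldo1 (1.14 ± 0.078) and Me1 (0.87 ± 0.076). Of the genes of cholesterol synthesis, uptake and efflux 15 of 25 rose, with a median of 0.27. Pmvk (0.89 ± 0.094), Dhcr7 (0.77 ± 0.091) and Insig1 (0.70 ± 0.10), an inhibitor of the SREBP pathway, were the clearest, while the exporter Abca1 (-0.050 ± 0.075) was not called.

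Genes of the insulin pathway and of glucose transport by GLUT4 rose in 15 of 25 cases, with none lower and a median of 0.32. Slc2a4, which encodes GLUT4, was at 59.6, 66.6, 59.9 and 65.2 CPM in TNF_SCO and 30.9, 26.9, 25.2 and 31.7 CPM in TNF_DMSO (1.13 ± 0.10, 2.19-fold). Genes for its traffic rose by a like amount: Trarg1 (1.503 ± 0.079) and Sort1 (0.97 ± 0.077). The signalling genes moved less, with Irs2 at 0.78 ± 0.068, Irs1 at 0.47 ± 0.076, Akt2 at 0.42 ± 0.060 and the insulin receptor Insr at 0.32 ± 0.090. Slc2a1, which encodes the basal transporter GLUT1, was not called (0.12 ± 0.12), nor was Hk2 (0.18 ± 0.076), the insulin-responsive hexokinase. Of 19 glycolysis genes 9 rose, among them Pfkl (0.48 ± 0.052), Ldha (0.36 ± 0.067) and the lactate transporter Slc16a1 (0.96 ± 0.098), and Hk1 fell (-0.38 ± 0.092), named after its value was seen. Glycogen genes rose in 8 of 14 cases, among them the targeting subunit Ppp1r3d (1.21 ± 0.10) and the branching enzyme Gbe1 (0.73 ± 0.11).

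Mitochondrial and peroxisomal fuel genes rose. Of 26 fatty acid oxidation genes 25 rose, with a median of 0.68. Acaa1b, a peroxisomal thiolase, was at 7.84, 5.25, 7.63 and 7.75 CPM in TNF_SCO and 0.289, 0.408, 0.520 and 0.600 CPM in TNF_DMSO (3.94 ± 0.32), but has a close copy, Acaa1a. Pdk4, the kinase that holds back pyruvate oxidation, was at 22.8, 31.04, 22.8 and 20.8 CPM with SCO and 11.5, 6.78, 9.81 and 6.796 CPM with DMSO (1.47 ± 0.15). Both were low and did not overlap between the groups. Hadhb (1.09 ± 0.078), Crat (1.05 ± 0.072), Acadm (0.90 ± 0.062) and Cpt2 (0.64 ± 0.063) are the better expressed examples.

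Of 22 genes of the TCA cycle and pyruvate entry 20 rose, with a median of 0.37. Idh3a, a subunit of the NAD-linked isocitrate dehydrogenase, was at 160.1, 187, 170.2 and 202 CPM in TNF_SCO and 66.8, 73.2, 63.7 and 72.04 CPM in TNF_DMSO (1.38 ± 0.074). Pyruvate carboxylase Pcx (1.02 ± 0.075) and citrate synthase Cs (0.55 ± 0.074) followed. Of 52 nuclear genes for the respiratory chain and ATP synthase 47 rose, and all 52 differences lay above 0, from 0.18 to 1.02 with a median of 0.39. Cyc1 (0.75 ± 0.071), Ndufab1 (0.66 ± 0.071), Atp5g3 (0.64 ± 0.063) and Cox4i1 (0.34 ± 0.057) were among them. With library size alone 40 of these genes were called.

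The 8 tested mitochondrially encoded genes had a median of 0.22, and 3 rose, mt-Co1, mt-Nd5 (0.27 ± 0.066) and mt-Nd1. Of 13 listed genes, mt-Co2, mt-Co3, mt-Atp6, mt-Atp8 and mt-Nd4l were not tested. Each had at most 5 counts in any of the 8 libraries, so the median leaves them out. mt-Co1, the cytochrome oxidase core subunit, was at 6995, 6952, 7216 and 6221 CPM in TNF_SCO and 5873, 5148, 5376 and 5571 CPM in TNF_DMSO (0.32 ± 0.066), while mt-Nd2 was not called (0.27 ± 0.16, 95% interval -0.046 to 0.59) and its libraries overlapped, though it was called higher with no filter on low counts. The mt-Nd1 call was lost with library size alone and without replicate 1 or 2 of TNF_SCO or replicate 2 or 4 of TNF_DMSO (edgeR adjusted p of 0.062 to 0.092). Of 6 tested thermogenic genes 5 rose, Kcnk3 (1.32 ± 0.10), Cox8b (1.02 ± 0.077), Ucp3 (0.93 ± 0.16), Ucp2 (0.76 ± 0.085) and Cox7a1 (0.70 ± 0.12), and Ucp1, the uncoupler of brown fat, had no count in any of the 8 libraries. Enzymes that break down branched-chain amino acids rose in 15 of 22 cases with a median of 0.30, led by Bckdhb (0.70 ± 0.091) and Hibch (0.68 ± 0.078).

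Antioxidant genes driven by NRF2 rose in 14 of 26 cases with none lower and a median of 0.35. Nqo1, the quinone reductase that serves as a marker of NRF2, was at 54.7, 69.7, 66.7 and 69.7 CPM in TNF_SCO and 38.4, 38.4, 37.2 and 41.1 CPM in TNF_DMSO (0.75 ± 0.10). Cbr3 (0.69 ± 0.082) and Blvrb (0.68 ± 0.076), a carbonyl and a biliverdin reductase, rose by about as much. Hmox1, the inducible heme oxygenase, was at 186, 295, 254 and 244 CPM with SCO and 174, 190.0, 144 and 178 CPM with DMSO, overlapped between the groups and was not called (0.51 ± 0.20, 95% interval 0.11 to 0.92, edgeR adjusted p = 0.064). It was called with no filter on low counts, with a replicate block, with only the groups compared and without replicate 1 of TNF_SCO. The element TGACNNNGC, which NRF2 binds with small Maf proteins, stood on either strand in a promoter window of 9 of 21 list members with a window (42.9%), and in 1703 of 10060 tested genes with one (16.9%). Among genes with a window it stood in 245 of 1434 called higher (17.1%) and in 147 of 897 called lower (16.4%), shares near that of all genes.

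Catalase (Cat, 0.91 ± 0.068), Sod1 (0.62 ± 0.071), Gpx1 (0.51 ± 0.070) and the mitochondrial Sod2 (0.46 ± 0.061) were among 6 of 13 peroxide and superoxide genes that rose, and Prdx4 fell (-0.28 ± 0.085). Prdx4 was named after its value was seen, and its call was lost without replicate 2 of TNF_SCO or replicate 2 of TNF_DMSO (edgeR adjusted p of 0.054 to 0.067). Glutathione transferases went both ways, 8 of 15 higher and 2 lower. Gsta3 was at 3.83, 7.46, 4.31 and 7.33 CPM in TNF_SCO and 0.701, 0.917, 0.867 and 0.480 CPM in TNF_DMSO (2.94 ± 0.35). The microsomal Mgst2 (1.497 ± 0.16), Mgst3 (1.14 ± 0.13) and Mgst1 (0.81 ± 0.067) rose, as did Gstz1 (0.82 ± 0.079) and Gsta4 (0.75 ± 0.11), whereas Gstt1 (-0.92 ± 0.15) and Gstt3 (-0.75 ± 0.093) fell, both named after their values were seen. Members of this family share sequence, so their counts are uncertain. Of 17 genes of xenobiotic and retinoid metabolism 6 rose and 4 fell. Retsat (1.48 ± 0.063), a retinol saturase needed for fat cell differentiation, and the epoxide hydrolase Ephx2 (1.41 ± 0.078) rose, while Cyp2f2 (-0.99 ± 0.12), Cyp1b1 (-0.61 ± 0.078) and Cyp7b1 (-1.07 ± 0.18) were among those that fell, the last named after its value was seen.

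Of 25 stress genes of the unfolded protein and ATF4 responses 5 rose and none fell, where 13.2% of all genes rose and 8.09% fell. Their median of 0.029 was near the 0.012 of all genes. Dnajb9, a chaperone of the endoplasmic reticulum, was at 108, 114, 108 and 108 CPM in TNF_SCO and 54.1, 50.5, 50.04 and 56.1 CPM in TNF_DMSO (1.05 ± 0.063), the largest difference of the list. Xbp1 (0.34 ± 0.057), Atf5 (0.28 ± 0.071), Eif4ebp1 (0.27 ± 0.055) and Psat1 (0.17 ± 0.062) were the other 4 calls, and that of Psat1 was lost with library size alone, with no filter on low counts, with only the groups compared and without replicate 2 or 4 of TNF_SCO or replicate 1, 2 or 3 of TNF_DMSO (edgeR adjusted p of 0.050 to 0.25). The chaperone Hspa5 (-0.079 ± 0.048), Atf4 (-0.037 ± 0.080) and Ddit3 (-0.11 ± 0.14), which encodes CHOP, were not called, though Hspa5 was called lower with library size alone.

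The bars of calls by gene list show, for each list with at least 6 tested members, the percentage called higher and the percentage called lower. The lists were written with earlier results of these data known, so their contents are not independent of them.

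**Figure D3:**
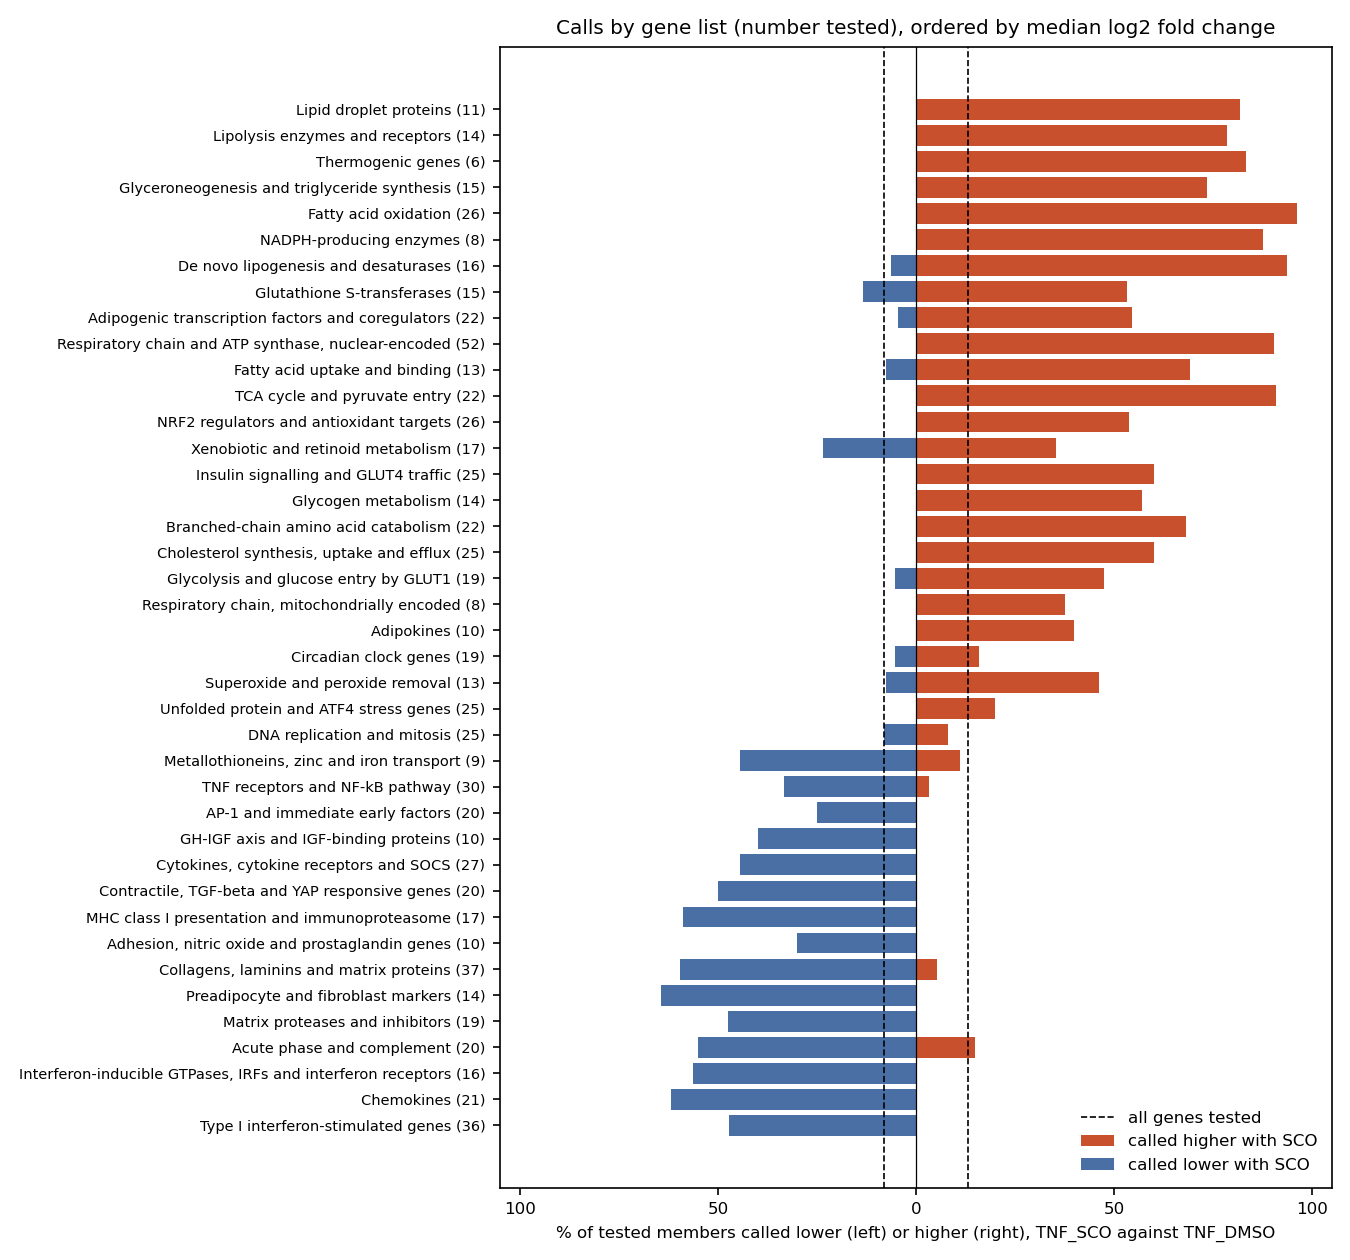
Bars give the percentage of tested members of each of 40 lists with at least 6 tested members (number tested in brackets) that were called higher (orange, right) or lower (blue, left) in TNF_SCO than in TNF_DMSO; dashed lines mark the share of all tested genes, 13.2% higher and 8.09% lower. Lists run from the highest median log2 fold change at the top to the lowest at the bottom.

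Of 30 tested genes of the TNF receptors and the NF-κB pathway 10 fell and 1 rose with SCO, with a median of -0.17. Nfkbia, the NF-κB inhibitor that the pathway itself induces, was at 1953, 1744, 1952 and 1644 CPM in TNF_SCO and 1893, 1831, 1889 and 1968 CPM in TNF_DMSO, with overlapping groups (-0.056 ± 0.067, 95% interval -0.19 to 0.081). Tnfaip3 (A20), the other main feedback inhibitor, was not called (-0.23 ± 0.10, edgeR adjusted p = 0.12), although its 4 libraries with SCO lay below the 4 with DMSO and it was called lower with library size alone, with only the groups compared and with limma-voom. The subunit Nfkb1 fell (-0.36 ± 0.094), and the inhibitor Nfkbie (-0.74 ± 0.13), the ubiquitin ligase Birc2 (-0.63 ± 0.083), the kinase Ikbkb (-0.41 ± 0.083) and Tnfaip2 (-0.39 ± 0.076) fell as well. Nfkb2 was not called (-0.19 ± 0.077), but was called lower with library size alone, with only the groups compared, with limma-voom and without replicate 3 of TNF_SCO. Of the receptors, Tnfrsf1b (TNFR2) fell (-0.50 ± 0.11) and Tnfrsf1a (TNFR1) was the 1 gene that rose (0.16 ± 0.051), a call lost with library size alone, with no filter on low counts, with only the groups compared and without replicate 3 of TNF_SCO or replicate 1 of TNF_DMSO (edgeR adjusted p of 0.064 to 0.23).

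Chemokines fell in 13 of 21 cases and none rose, with a median of -0.70. Ccl5 (ENSMUSG00000035042), which draws T cells and monocytes, was at 182, 90.5, 115 and 102 CPM in TNF_SCO and 394, 447, 453 and 533 CPM in TNF_DMSO (-1.90 ± 0.19 on the log2 scale). All 4 SCO libraries lay far below all 4 DMSO libraries. Ccl2, the monocyte chemokine MCP-1, was at 1680.2, 1333, 1480.0 and 1176 CPM with SCO and 2228, 2287, 2486 and 2456 CPM with DMSO (-0.74 ± 0.12). Ccl7 (-0.75 ± 0.12), Cxcl12 (-0.70 ± 0.084), Ccl6 (-0.99 ± 0.12), the membrane-bound Cx3cl1 (-0.69 ± 0.12) and the neutrophil attractant Cxcl1 (-0.37 ± 0.11) fell as well. The leukocyte marker Cd68 fell beside them (-0.78 ± 0.27), a call lost without replicate 1, 2, 3 or 4 of TNF_SCO or replicate 2, 3 or 4 of TNF_DMSO (edgeR adjusted p of 0.053 to 0.097), and its part in the chemokine result was not tested. The other 2 tested leukocyte markers, Csf1r (-0.16) and Lyz2 (0.30), were low and not called.

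Among cytokines, their receptors and SOCS genes 12 of 27 fell and none rose, with a median of -0.28. Il6 was low, at 2.23, 1.75, 1.64 and 0.651 CPM in TNF_SCO and 4.87, 5.91, 6.17 and 7.196 CPM in TNF_DMSO (-1.91 ± 0.37). Csf1, the macrophage growth factor, was at 290.1, 219, 269 and 236 CPM with SCO and 372, 402, 399.8 and 405 CPM with DMSO (-0.64 ± 0.081). Both were apart between the groups. The interleukin 15 receptor chain Il15ra (-0.89 ± 0.12), the kinase Jak2 (-0.63 ± 0.090) and the feedback inhibitor Socs3 (-0.65 ± 0.096) fell. Of 10 genes for adhesion molecules, nitric oxide and prostaglandins 3 fell, Vcam1, Nos2 and Ptgis (-0.45 ± 0.13). Vcam1, which binds leukocytes, was at 606, 457, 495 and 457 CPM with SCO and 909, 904, 905 and 966 CPM with DMSO (-0.87 ± 0.095), and Nos2, the inducible nitric oxide synthase, at 1.08 ± 0.300 CPM with SCO and 3.26 ± 0.974 CPM with DMSO (-1.58 ± 0.39). The Ptgis call was lost without replicate 3 of TNF_SCO (edgeR adjusted p = 0.054). Icam1 and Ptgs2 were at a few CPM and not called, though Ptgs2 (-0.69 ± 0.28, edgeR adjusted p = 0.076) was called lower with library size alone, with only the groups compared, with limma-voom and with DESeq2.

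Acute phase and complement genes moved in both directions, 11 of 20 lower and 3 higher, with a median of -0.56. Saa3, a serum amyloid made by fat cells, was at 3777, 2734, 2815 and 3091 CPM in TNF_SCO and 5704, 6444, 6479 and 7062 CPM in TNF_DMSO (-1.05 ± 0.13). Ptx3, a pentraxin of innate immunity, was at 345, 225, 277 and 226 CPM with SCO and 582, 649.9, 705 and 681 CPM with DMSO (-1.29 ± 0.13). Both were at least 2-fold lower with SCO. Serpina3n (-0.90 ± 0.14), ceruloplasmin (Cp, -0.56 ± 0.085) and Lcn2 (-0.56 ± 0.10), which binds iron carriers of bacteria, fell, and C3 was not called (-0.18 ± 0.081) except with library size alone and with only the groups compared, where it was lower. Haptoglobin (Hp), which binds free hemoglobin and was the most abundant gene of the list, was higher with SCO, at 16066, 16557, 14677 and 15126 CPM, against 12290.0, 11687, 11531 and 13163 CPM with DMSO (0.36 ± 0.082). Hemopexin (Hpx, 0.63 ± 0.096), which binds heme, and the metal reductase Steap4 (0.67 ± 0.12), named after its value was seen, were the other genes that rose. The sum over the list, 25247, 24611, 22243 and 23255 CPM with SCO and 23442, 23883, 23764 and 26406 CPM with DMSO, overlapped between the groups.

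Metal-handling genes gave 4 decreases and 1 increase among 9. Metallothionein 2 (Mt2), which binds zinc and copper, was at 9873, 10749, 7522 and 10335 CPM in TNF_SCO and 12771, 13765, 13479 and 14182 CPM in TNF_DMSO (-0.49 ± 0.14), Mt1 had -0.22 ± 0.076, the zinc importer Slc39a14 -0.53 ± 0.093 and transferrin (Trf) -0.46 ± 0.16. The transferrin receptor Tfrc rose (1.11 ± 0.099). The Mt2 call was lost without replicate 3 of TNF_SCO (edgeR adjusted p = 0.058), that of Mt1 lost without replicate 1, 3 or 4 of TNF_SCO or replicate 2, 3 or 4 of TNF_DMSO (edgeR adjusted p of 0.054 to 0.17), and that of Trf lost without replicate 3 or 4 of TNF_SCO or replicate 1, 2 or 4 of TNF_DMSO (edgeR adjusted p of 0.061 to 0.15). Of the 4 decreases 2 were left without replicate 2 or 4 of TNF_DMSO or replicate 4 of TNF_SCO, and 1 without replicate 3 of TNF_SCO.

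Type I interferon-stimulated genes had the lowest median of all lists, -0.89, with 17 of 36 lower and none higher. The promoters of 3 genes are shown because these are among the 12 largest decreases and hold the element. The 250 bases upstream of the annotated start are given 5′ to 3′ on the gene's strand, from RefSeq (GRCm38.p6), for the antiviral gene Rsad2 (viperin, chr12:26456453-26456702, - strand), for Ifit1 (chr19:34640639-34640888, + strand), which binds viral RNA, and for the chemokine Cxcl10 (chr5:92348890-92349139, - strand), which draws T cells. Capitals mark the ISRE letters (GAAA, any 2 bases, then GAAA) on either strand and, in Cxcl10 only, also matches to the NF-κB consensus.
Rsad2: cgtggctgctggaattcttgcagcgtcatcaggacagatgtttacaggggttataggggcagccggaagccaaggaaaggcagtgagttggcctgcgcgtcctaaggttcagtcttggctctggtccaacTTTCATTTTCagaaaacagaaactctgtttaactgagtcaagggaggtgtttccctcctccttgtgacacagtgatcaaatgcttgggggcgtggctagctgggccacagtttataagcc
Ifit1: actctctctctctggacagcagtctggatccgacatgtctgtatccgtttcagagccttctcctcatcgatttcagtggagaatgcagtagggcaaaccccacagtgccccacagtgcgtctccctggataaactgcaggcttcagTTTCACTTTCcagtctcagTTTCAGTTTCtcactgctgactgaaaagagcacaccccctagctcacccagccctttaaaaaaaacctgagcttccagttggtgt
Cxcl10: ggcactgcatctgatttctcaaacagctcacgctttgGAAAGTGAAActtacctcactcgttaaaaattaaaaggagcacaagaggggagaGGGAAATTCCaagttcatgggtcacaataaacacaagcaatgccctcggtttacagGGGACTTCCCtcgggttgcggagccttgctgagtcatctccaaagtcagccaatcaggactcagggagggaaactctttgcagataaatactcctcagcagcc
The first ISRE base stood 120 bases upstream of the start in Rsad2, 104 and 85 bases upstream in Ifit1 and 213 bases upstream in Cxcl10, where the NF-κB matches began 159 and 103 bases upstream and overlapped no ISRE. The letters were found in windows running from 250 bases before to 50 after a start in 14 of 25 list members with a window (56%), in 21 of 83 genes that fell at least 2-fold (25.3%), in 65 of 897 called lower (7.25%), in 45 of 1434 called higher (3.14%) and in 376 of all 10060 tested genes with a window (3.74%). The NF-κB consensus was in 6 of 14 chemokine genes with a window (42.9%) and in 632 of the 10060 (6.28%). It was in 69 of the 897 called lower (7.69%) and in 78 of the 1434 called higher (5.44%). These are matches of letters, not binding sites.

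Rsad2 (ENSMUSG00000020641) was at 73.9, 14.9, 55.7 and 39.03 CPM in TNF_SCO and 94.1, 129, 156 and 212 CPM in TNF_DMSO (-1.68 ± 0.43, edgeR adjusted p = 0.0032). Ifit1 was at 141, 43.2, 98.4 and 85.7 CPM with SCO and 178, 202, 251 and 319 CPM with DMSO (-1.36 ± 0.45, edgeR adjusted p = 0.025). Cxcl10 was at 180.2, 53.5, 92.2 and 90.01 CPM with SCO and 237, 261, 379 and 449.8 CPM with DMSO (-1.67 ± 0.28, edgeR adjusted p = 1.9e-05). In all 3 genes replicate 1 of TNF_SCO was the highest and replicate 2 the lowest of its group, and replicate 4 of TNF_DMSO was the highest of all 8. Ifit3 shared that pattern, at 164, 42.8, 123 and 81.6 CPM with SCO and 210.0, 205, 272 and 424 CPM with DMSO (-1.43 ± 0.47), but the near-identical Ifit3b (-1.38 ± 0.39) can share its reads. Among genes of other lists, replicate 1 of TNF_SCO was also the highest of its group for Ccl5, Ccl2, Saa3, Ptx3, Vcam1 and Col1a2. Isg15 (-1.29 ± 0.46), a ubiquitin-like protein, Ifit2 (-1.252 ± 0.25), the nucleotide kinase Cmpk2 (-1.53 ± 0.38) and Stat2 (-0.83 ± 0.23), a factor that binds the ISRE, were called lower. Irf7 (-0.89 ± 0.35, 95% interval -1.59 to -0.19, edgeR adjusted p = 0.062) was not, but it was called lower with library size alone, with no filter on low counts, with only the groups compared, with limma-voom and without replicate 1 of TNF_SCO or replicate 2 of TNF_DMSO. Of the 12 largest decreases, 9 besides Ccl5, Gm19705 and Cxcl9 were Rsad2, Cxcl10, Cmpk2, Ifit3, Ifit3b, Ifit1 and the interferon-inducible Ifi203 (-1.43 ± 0.27), Mndal (-1.39 ± 0.27) and Phf11d (-1.40 ± 0.36).

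The spread within TNF_SCO and TNF_DMSO was wide for these genes, and the number of calls depended on the method, the filter and the libraries fitted. The fit of all libraries also uses the spread within the other groups, whose part in these counts was not tested. Of the 36 genes, 17 were called lower in the fit of all libraries, 6 by DESeq2, and 31 with no filter on low counts and 31 with only the groups compared. Without replicate 4 of TNF_DMSO or replicate 2 of TNF_SCO 8 were called, and without replicate 4 of TNF_SCO 9. The calls of Rsad2, Ifit1, Ifit3, Isg15, Cmpk2 and Phf11d were lost with DESeq2, and those of Ifit1, Ifit3 and Isg15 also with fewer libraries: Ifit1 lost without replicate 2 or 4 of TNF_SCO or replicate 3 or 4 of TNF_DMSO (edgeR adjusted p of 0.053 to 0.11), Ifit3 lost without replicate 2 or 4 of TNF_SCO or replicate 4 of TNF_DMSO (edgeR adjusted p of 0.070 to 0.10) and Isg15 lost without replicate 2, 3 or 4 of TNF_SCO or replicate 1, 3 or 4 of TNF_DMSO (edgeR adjusted p of 0.053 to 0.14). The summed level of the list was 4649, 3080.2, 4029 and 3612 CPM in TNF_SCO and 5683, 5381, 5577 and 7324 CPM in TNF_DMSO, with all 4 SCO libraries below all 4 DMSO libraries.

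**Figure D4:**
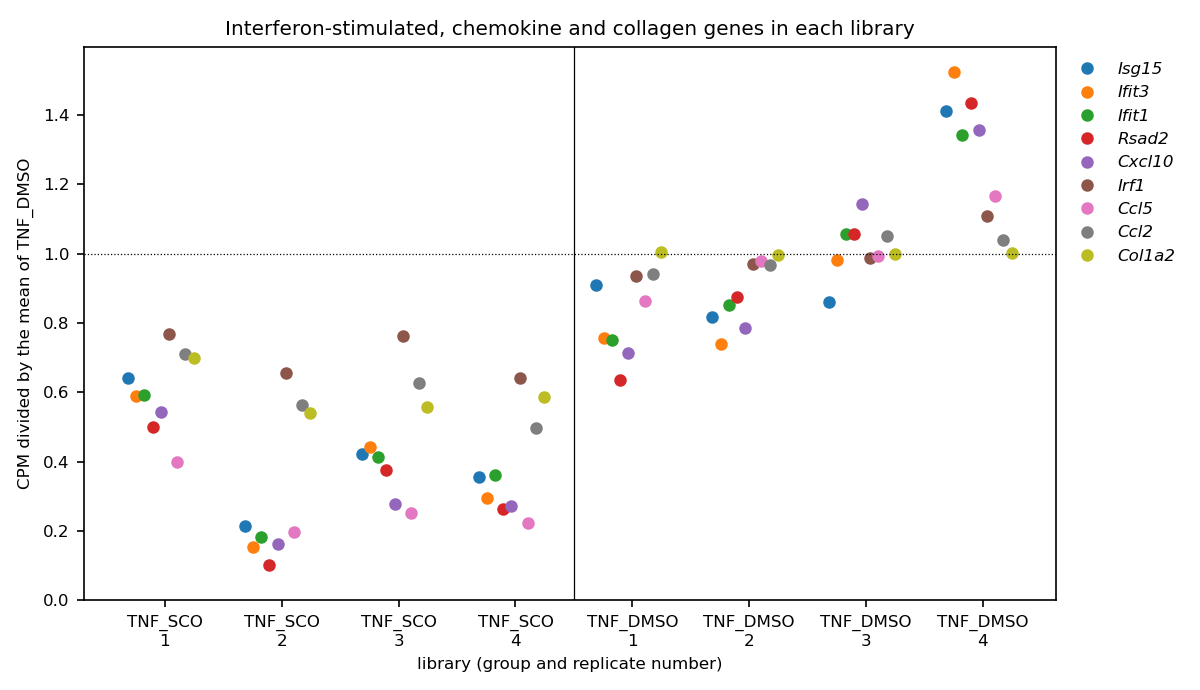
The y axis is the CPM of a gene divided by its mean in TNF_DMSO, and the x axis gives the 8 libraries, TNF_SCO left of TNF_DMSO; each colour is 1 gene. The interferon-stimulated genes Rsad2, Ifit1, Ifit3 and Isg15 and Cxcl10 spread together within each group, low in replicate 2 of TNF_SCO and high in replicate 4 of TNF_DMSO, whereas Ccl2 and Col1a2 keep to a narrow band in each group.

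Genes of neighbouring interferon programmes fell too. Irf1, a factor that NF-κB and interferon signalling induce, was at 349.9, 299, 347 and 291 CPM in TNF_SCO and 425, 442, 449 and 504 CPM in TNF_DMSO (-0.50 ± 0.076). Of 16 interferon-inducible GTPases, interferon regulatory factors and receptors 9 fell and none rose (median -0.64), among them Gbp5 (-1.05 ± 0.19) and Gbp7 (-0.97 ± 0.27), while Gbp2 was not called (-0.29 ± 0.13) except with library size alone, with no filter on low counts, with only the groups compared and with limma-voom, where it was lower. DESeq2 called 5 of them, and 5 were called without replicate 4 of TNF_DMSO. Of 17 genes for antigen presentation by MHC class I 10 fell (median -0.35), led by the peptide transporter Tap1 (-0.77 ± 0.21) and with H2-T23 (-0.54 ± 0.14) and the immunoproteasome subunit Psmb8 (-0.44 ± 0.15). The class I heavy chain H2-K1 (0.13 ± 0.086) and β2-microglobulin (B2m, -0.18 ± 0.097) were not called, though B2m was called lower with no filter on low counts and with only the groups compared. Leaving out replicate 4 of TNF_DMSO left 4 of the 10 calls, replicate 2 of TNF_SCO 5, and replicate 3 or 4 of TNF_SCO 6 each. DESeq2 did not call Psmb8, and its edgeR call was lost without replicate 3 or 4 of TNF_SCO or replicate 2 or 4 of TNF_DMSO (edgeR adjusted p of 0.060 to 0.13). MHC genes share sequence, so their counts are uncertain.

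Matrix genes fell in 22 of 37 cases and 2 rose, with a median of -0.40. Col1a2, a chain of type I collagen, was at 2349, 1822, 1872 and 1973 CPM in TNF_SCO and 3376, 3348, 3357 and 3375 CPM in TNF_DMSO (-0.75 ± 0.073), with no overlap and a DMSO group that varied little. Fibronectin (Fn1) was at 114, 82.5, 92.4 and 88.6 CPM with SCO and 195, 174, 199 and 147 CPM with DMSO (-0.92 ± 0.10). Col1a1 (-0.56 ± 0.090), Col3a1 (-0.54 ± 0.083) and biglycan (Bgn, -0.62 ± 0.064) fell, and the basement membrane collagen Col4a1 fell by less (-0.20 ± 0.057). The 2 genes that rose, Nid1 (0.46 ± 0.052) and Col15a1 (0.64 ± 0.086), also belong to the basement membrane zone. Of 19 matrix proteases and inhibitors 9 fell and none rose. The aggrecanase Adamts5 was at 120.4, 95.1, 103 and 115 CPM with SCO and 211, 211, 234 and 209 CPM with DMSO (-0.996 ± 0.091), and the inhibitor Timp1 at 660.3, 466, 544 and 481 CPM with SCO and 953, 1035, 1154 and 1054 CPM with DMSO (-0.96 ± 0.14). Adamts1 (-0.88 ± 0.094), Adamts4 (-1.34 ± 0.19) and Mmp14 (-0.71 ± 0.077) fell, but Mmp3 (0.043 ± 0.13, 95% interval -0.23 to 0.31) and Mmp13 (0.26 ± 0.15, 95% interval -0.033 to 0.56) were not called, though Mmp13 was called higher with only the groups compared.

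Contractile genes and targets of TGF-β and YAP fell in 10 of 20 cases and none rose. Smooth muscle actin (Acta2) was at 321, 252, 262 and 221 CPM in TNF_SCO and 445, 509.7, 478 and 478 CPM in TNF_DMSO (-0.85 ± 0.16), with Tagln (-1.05 ± 0.28), Myh9 (-0.46 ± 0.067) and Actn1 (-0.46 ± 0.068) also lower. Of 14 genes that mark preadipocytes and fibroblasts 9 fell, with a median of -0.40. They included vimentin (Vim, -0.51 ± 0.070), the growth factor receptors Pdgfrb (-0.67 ± 0.10) and Pdgfra (-0.40 ± 0.12) and the surface protein Ly6c1 (-0.83 ± 0.15), while Dlk1 (Pref-1), the classic preadipocyte marker, was not called (-0.18 ± 0.086) except with library size alone and without replicate 1 of TNF_SCO, where it was lower. Only 4 of the 14 were called without replicate 2 of TNF_SCO and 5 without replicate 3 of TNF_DMSO. The Pdgfra call was lost without replicate 2 or 4 of TNF_SCO or replicate 3 of TNF_DMSO (edgeR adjusted p of 0.057 to 0.12). The 8 markers of preadipocytes, of which Dpp4 had no count, summed to 468 to 585 CPM in TNF_SCO and 547 to 618 CPM in TNF_DMSO, and the part of such cells in the matrix and contractile results was not tested. Of 10 genes of the growth hormone and IGF axis 4 fell: Igfbp3 (-0.80 ± 0.14), Igfbp7 (-0.50 ± 0.13), Igf1r (-0.47 ± 0.11) and Igfals (-0.32 ± 0.10), the last lost without replicate 3 of TNF_SCO or replicate 4 of TNF_DMSO (edgeR adjusted p of 0.091 to 0.096).

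Of 20 AP-1 and immediate early genes 5 fell and none rose: Klf6 (-0.64 ± 0.093), Egr1 (-0.44 ± 0.078), Junb (-0.31 ± 0.096), Klf4 (-0.70 ± 0.14) and Egr2 (-0.74 ± 0.23). Fos (-0.28 ± 0.26) and Jun (-0.15 ± 0.11) were not called. The Junb call was lost without replicate 2 or 4 of TNF_SCO or replicate 1 of TNF_DMSO (edgeR adjusted p of 0.052 to 0.081) and that of Egr2 lost without replicate 2 of TNF_SCO or replicate 2 of TNF_DMSO (edgeR adjusted p of 0.057 to 0.062). Of these calls 3 were left without replicate 2 of TNF_SCO, and 8 were made with only the groups compared. Clock genes gave 3 increases, Cry2 (0.51 ± 0.12), Per3 (0.44 ± 0.15) and Clock (0.33 ± 0.083), and 1 decrease, Bhlhe40 (-0.39 ± 0.087), among 19. These shares were near those of all genes tested, 13.2% higher and 8.09% lower. DNA replication and mitosis genes gave 2 increases, Ccne2 (0.29 ± 0.10) and Ccnd2 (0.16 ± 0.054), and 2 decreases, Ccna2 (-0.56 ± 0.18) and Mcm6 (-0.31 ± 0.10), among 25, shares at or below those of all genes. Each of these 4 calls was lost under other settings or on leaving out single libraries: Ccne2 lost with library size alone, with no filter on low counts and without replicate 1, 2 or 4 of TNF_SCO or replicate 1, 2 or 4 of TNF_DMSO (edgeR adjusted p of 0.071 to 0.14), Ccnd2 lost with library size alone, with no filter on low counts, with only the groups compared and without replicate 1 or 3 of TNF_SCO or replicate 1, 2 or 3 of TNF_DMSO (edgeR adjusted p of 0.064 to 0.27), Ccna2 lost without replicate 3 or 4 of TNF_SCO or replicate 3 of TNF_DMSO (edgeR adjusted p of 0.084 to 0.13) and Mcm6 lost without replicate 2 or 3 of TNF_SCO or replicate 2 or 3 of TNF_DMSO (edgeR adjusted p of 0.053 to 0.12). The Per3 call was lost with library size alone and without replicate 3 or 4 of TNF_SCO or replicate 1 or 2 of TNF_DMSO (edgeR adjusted p of 0.056 to 0.067), and also with limma-voom (adjusted p = 0.058).

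The same SCO contrast was made without TNF, from 8 other libraries in the same fit. It gave 2781 called genes (19.3%), 1484 of them higher (10.3%) and 1297 lower (8.99%). Of the genes called higher with TNF, 914 were also called higher without it, 47.9% of the calls with TNF and 61.6% of those without. Of those called lower, 558 were lower in both, 47.8% of the calls with TNF and 43.0% of those without. In opposite directions, 30 were higher with TNF and lower without, and 10 lower with TNF and higher without. The difference between the 2 SCO effects was itself called for 670 genes (4.64%), 507 genes above 0 (3.51%) and 163 below 0 (1.13%). Of the 507, 389 were called higher with TNF, 99 not called and 19 called lower. Of the 163, 64 were called lower with TNF, 86 not called and 13 called higher.

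Several fat storage genes had a larger SCO effect on the log2 scale with TNF than without. With TNF, Pck1 was at 62.4 ± 6.61 CPM in TNF_SCO and 3.59 ± 0.877 CPM in TNF_DMSO. Without TNF it was at 151 ± 8.54 CPM in basal_SCO and 48.3 ± 7.09 CPM in basal_DMSO, a larger rise in CPM from a higher level. On the log2 scale its SCO effect was 4.14 ± 0.16 with TNF and 1.64 ± 0.13 without, a difference of 2.50 ± 0.21 (edgeR adjusted p = 4.9e-11). B3galt2, the largest such difference where a group averaged 16 CPM or more, had 3.34 ± 0.16 with TNF and 0.20 ± 0.12 without (3.14 ± 0.20), at 66.8 ± 5.05 CPM in basal_SCO and 58.00 ± 5.62 CPM in basal_DMSO. Clstn3 (2.21 ± 0.16), the small GTPase Rasd1 (2.22 ± 0.24), Thrsp (2.04 ± 0.21) and the neuropeptide receptor Adcyap1r1 (1.81 ± 0.27) followed. The sign itself differed for some. Thrsp had 1.31 ± 0.16 with TNF and -0.73 ± 0.14 without, Scd1 0.86 ± 0.086 with TNF and -0.51 ± 0.085 without, Dgat2 1.11 ± 0.076 with TNF and -0.28 ± 0.075 without, and Gpx1 0.51 ± 0.070 with TNF and -0.25 ± 0.071 without, each called in both. Haptoglobin (Hp) was likewise 0.36 ± 0.082 with TNF and -1.20 ± 0.083 without, at 345 ± 22.9 CPM in basal_SCO and 795 ± 73.2 CPM in basal_DMSO, a difference of 1.56 ± 0.12. For Pparg the difference was 0.45 ± 0.11: it was called lower without TNF (-0.50 ± 0.078) and not called with it. Nqo1 rose with TNF and was not called without (0.12 ± 0.12), with a difference of 0.63 ± 0.16. It was not typical of its list of 26 antioxidant genes, of which 14 rose with TNF and 17 without. The difference was called above 0 for 1 of the 26, Nqo1, and below 0 for 2, with a median of -0.095.

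The 6 largest differences below 0 included genes that SCO raised without TNF. Il13ra2, a decoy receptor of interleukin 13, fell with TNF (-0.92 ± 0.16) and was not called without (1.08 ± 0.50). Its difference was -1.997 ± 0.52, a call lost with limma-voom. Atf3, a stress-induced factor, had -0.37 ± 0.17 with TNF and 1.21 ± 0.20 without (-1.58 ± 0.27). With TNF it was not called, except with no filter on low counts and with only the groups compared, where it was lower. The secreted Tsku had 0.053 ± 0.12 with TNF, not called, and 1.23 ± 0.14 without (-1.18 ± 0.19). The kinase Pim1 had -0.52 ± 0.12 with TNF and 0.71 ± 0.16 without (-1.23 ± 0.20). The small GTPase Rnd1 had -0.51 ± 0.17 with TNF and 0.74 ± 0.23 without (-1.254 ± 0.29). Gm19705, which the files and tables annotate by symbol only, had -1.80 ± 0.21 with TNF and -0.17 ± 0.31 without (-1.63 ± 0.38). Angptl4 rose in both states, by more without TNF (1.14 ± 0.062, difference -0.73 ± 0.086), and Hmox1 was called without TNF only (1.64 ± 0.21), with a difference of -1.12 ± 0.29.

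By list, the difference above 0 was called for 8 of 11 lipid droplet genes with 1 below 0, for 7 of 14 lipolysis genes, 7 of 15 triglyceride synthesis genes, 9 of 25 insulin and GLUT4 genes, 8 of 22 genes of branched-chain amino acids and 5 of 20 acute phase genes. The median difference was 0.15 over the 52 nuclear respiratory chain genes, 0.038 over 25 cholesterol genes and 0.082 over 21 chemokines, with 0.040 over all genes. For the interferon-stimulated genes the median SCO effect was -0.89 with TNF and -0.66 without, where 2 of 36 were called. The difference between the 2 effects was called for none of the 36, with a median of -0.14.

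**Figure D5:**
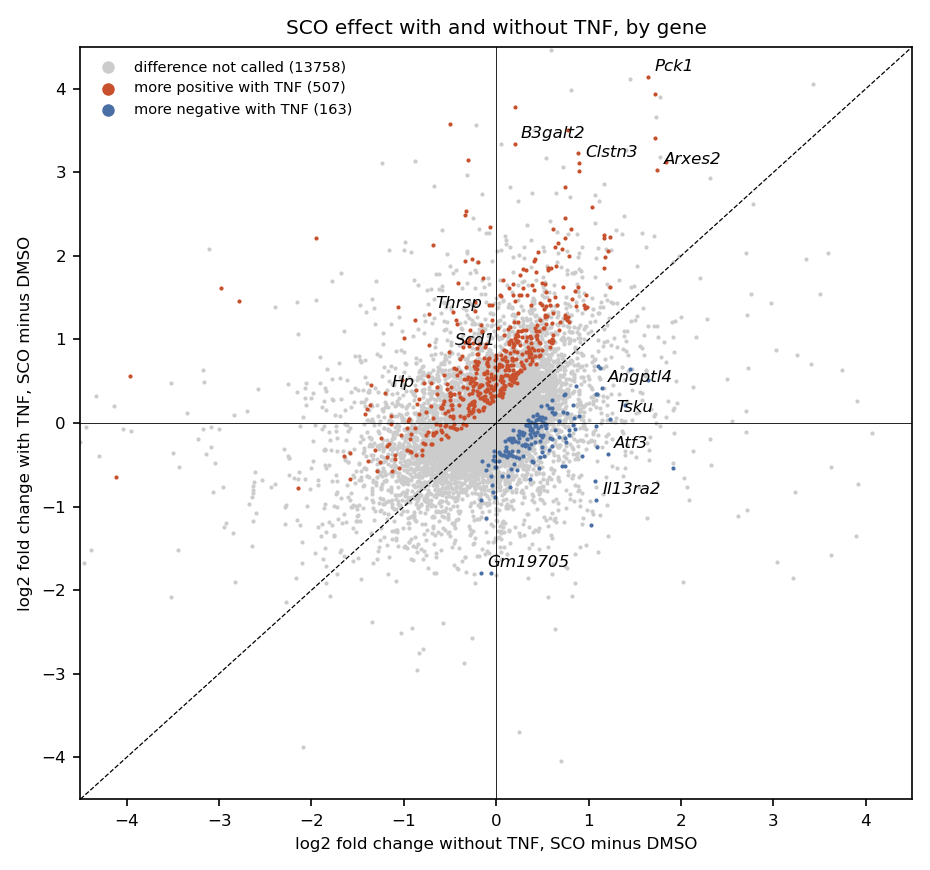
Each point is a gene; the x axis is the log2 fold change of SCO against DMSO without TNF and the y axis the same with TNF, with the dashed line where both are equal. Orange points (507) are genes whose SCO effect was called more positive with TNF, blue points (163) more negative, grey points were not called, and 13 genes lie outside the axes at 4.5.

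SCO was then compared with rosiglitazone (ROSI), the reference PPARγ agonist, in cells with TNF. The comparison shares the TNF_SCO libraries with those above. Of the genes tested 2074 were called (14.4%), 828 higher (5.74%) and 1246 lower (8.64%) with SCO than with ROSI. The fat storage genes that rose with SCO were mostly lower than with ROSI: Pck1 was at 62.4 ± 6.61 CPM in TNF_SCO and 215 ± 42.4 CPM in TNF_ROSI (-1.79 ± 0.13), Cidec at 542 ± 38.4 CPM in TNF_SCO and 1202 ± 132 CPM in TNF_ROSI (-1.15 ± 0.076), and Clstn3 at 20.9 ± 1.43 CPM in TNF_SCO and 59.4 ± 6.21 CPM in TNF_ROSI (-1.51 ± 0.096). Acaa1b (-2.69 ± 0.21), Gk (-1.60 ± 0.12) and Arxes1 (-1.60 ± 0.16) were also among the 6 largest decreases, with the interferon-inducible Ifi27l2a (-1.55 ± 0.24). By list, SCO was below ROSI for 49 of 52 nuclear respiratory chain genes, 23 of 26 fatty acid oxidation genes, 20 of 22 TCA cycle genes, 11 of 15 triglyceride synthesis genes and 10 of 14 lipolysis genes, and above it for none of these. Adrb3 (0.26 ± 0.13) and Scd1 (0.072 ± 0.085) were not called. Of 36 interferon-stimulated genes 8 were lower with SCO than with ROSI and none higher. This count was not made under other settings. The Irf7 and Ifit3b calls against ROSI were lost with DESeq2 (DESeq2 adjusted p of 0.085 and 0.12). Both were also lost without replicate 2, 3 or 4 of TNF_SCO or replicate 1 or 4 of TNF_ROSI.

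Higher with SCO than with ROSI were 13 of 26 antioxidant genes, with 3 lower, and 7 of 15 glutathione transferases, with 2 lower. Nqo1 was at 65.2 ± 7.16 CPM in TNF_SCO and 30.8 ± 4.29 CPM in TNF_ROSI (1.08 ± 0.11), and the epoxide hydrolase Ephx1 at 57.9 ± 8.77 CPM in TNF_SCO and 22.95 ± 3.44 CPM in TNF_ROSI (1.33 ± 0.12). Gstm1 (1.05 ± 0.077), Hmox1 (0.98 ± 0.20) and Blvrb (0.82 ± 0.077) were higher as well. The 6 largest increases over ROSI also held the chemokine Ccl6 (1.24 ± 0.12), the antimicrobial peptide Camp (1.19 ± 0.18), the placental hormone gene Prl2c2 (1.09 ± 0.18) and the small nucleolar RNA Snord89 (1.45 ± 0.36, lost without replicate 3 of TNF_SCO). Prl2c2 has close copies, so its count is uncertain. Ccl6 and Camp had fallen with SCO against DMSO (-0.99 ± 0.12 and -1.22 ± 0.17). Of 19 matrix proteases and inhibitors 6 were higher than with ROSI and none lower, among them Mmp3 (0.64 ± 0.13), Mmp14 (0.40 ± 0.077) and Adamts5 (0.49 ± 0.092).

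Against CAP7 in cells with TNF 1322 genes were called (9.16%), 596 higher (4.13%) and 726 lower (5.03%) with SCO. This count depended on the libraries: it was 738 with only the groups compared, 689 without replicate 3 of TNF_SCO and 723 without replicate 1 of TNF_CAP7. Cd36 (0.14 ± 0.063, 95% interval 0.0077 to 0.26) and Fabp4 (0.036 ± 0.10, 95% interval -0.17 to 0.24) were not called, while Pck1 was lower, at 62.4 ± 6.61 CPM in TNF_SCO and 92.03 ± 19.7 CPM in TNF_CAP7 (-0.56 ± 0.13), as were Thrsp (-1.17 ± 0.15) and Slc2a4 (-0.49 ± 0.098). The selenoprotein Selenow (-1.62 ± 0.073), the glycogen-targeting subunit Ppp1r3c (-1.24 ± 0.11), Isg20 (-1.17 ± 0.22), Selenbp1 (-1.12 ± 0.13) and Lbp (-1.02 ± 0.15) were the other large decreases. Higher with SCO were Prl2c2 (1.63 ± 0.19), Wfdc17 (1.21 ± 0.18), the tubulin Tubb2b (1.05 ± 0.21), Nqo1 (0.96 ± 0.10), monoamine oxidase A (Maoa, 0.91 ± 0.091) and the protease inhibitor Slpi (0.84 ± 0.16). The acute phase genes Saa3 (-0.70 ± 0.13, a call lost with DESeq2), Lcn2 (-1.02 ± 0.10) and C3 (-0.55 ± 0.081) were lower with SCO than with CAP7, with 6 of 20 members of that list lower and none higher. Of 25 DNA replication and mitosis genes 9 were higher with SCO and none lower, among them Top2a (0.52 ± 0.11).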

How the data were processed

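RNA of 3T3-L1 adipocytes, in 32 libraries with 4 in each group, was sequenced by a 3' method (QuantSeq, per the labels' protocols). The deposited files hold raw counts per Ensembl gene, whole numbers not normalised by the authors. The submitters' processing notes name cutadapt 4.9, STAR 2.7.11b, HTSeq 2.0.5, R 4.4.1, limma 3.60.6 and the build GRCm39, with no role or order. The counting strand and multimapping rule were not given in the sources used here. Symbols came from a GENCODE M21 table, which matched 51880 of 57186 IDs.

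The counts were tested in R 4.3.3 with edgeR 4.0.16 (TMM factors, filterByExpr by group, 1 mean per group over all 32 libraries, quasi-likelihood F test, Benjamini-Hochberg adjusted p under 0.05). The procedure was tested on simulated data. Counts of 3' ends do not scale with transcript length, so no length correction was made. Library totals of 16.5 to 30.0 M set the precision of low genes. No column of samples outside the study was present.

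Genes were named by rule: the 12 largest called changes each way with at least 16 CPM and no overlap, up to 5 members with the lowest p and the key members of each list, and the 6 largest differences each way for the other comparisons. Members and lists were chosen with earlier results of these data known. Alternatives were RLE factors, library size alone, no mitochondrially encoded genes, no filter, at least 5 CPM in 4 libraries, a replicate block, only the groups compared, limma-voom (limma 3.58.1), DESeq2 1.42.0, and each library left out. Promoter windows, 250 bases before to 50 after a start, came from RefSeq (GRCm38.p6), for 10060 tested genes. A gene with several windows counted once. No gene coordinates were taken from the count files. Some genes of the lists are not reported here.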

Additional observations from a re-analysis of the deposited data

Results flagged for a closer look

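In 51 genes given by library, 102 groups of 4 were looked at, and 8 (7.84%) had 1 library far from the other 3. Chance flags about 1 in 20 groups. Scd1 was at 3787 CPM in replicate 1 of TNF_SCO, Acaa1b at 5.25 CPM and Dnajb9 at 114 CPM in replicate 2 of TNF_SCO. In TNF_DMSO, replicate 4 was apart for Nrg4 (3.28 CPM), Adipoq (3192 CPM) and Vcam1 (966 CPM), replicate 1 for Csf1 (372 CPM) and replicate 3 for Adamts5 (234 CPM).

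For 20 named genes the SCO effect with TNF differed from that without TNF by edgeR's test of the difference (log2, with TNF minus without). It was more positive or less negative with TNF for B3galt2 (3.14), Pck1 (2.50), Rasd1 (2.22), Clstn3 (2.21), Thrsp (2.04), Adcyap1r1 (1.81), Hp (1.56), Dgat2 (1.40), Scd1 (1.37), Gpx1 (0.75), Nqo1 (0.63) and Pparg (0.45). It was less positive or more negative with TNF for Il13ra2 (-2.0), Gm19705 (-1.63), Atf3 (-1.58), Rnd1 (-1.25), Pim1 (-1.23), Tsku (-1.18), Hmox1 (-1.12) and Angptl4 (-0.73).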

How the results depend on the processing

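The direction of no named gene's difference reversed among those called. Genes called lower numbered 1819 with library size alone, against 1167, and the calls against CAP7 numbered 738 with only the groups compared, against 1322. All other settings that kept all libraries gave counts within 1.5 times. Leaving out each library gave 1615 to 1799 higher calls, 882 to 1111 lower calls, 563 to 722 calls of the difference with and without TNF, 1483 to 2116 against ROSI, 689 to 1527 against CAP7 and 2198 to 2535 without TNF.

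Over all genes, same-numbered libraries of TNF_SCO and TNF_DMSO did not deviate together (correlations of -0.017, 0.045, 0.031 and 0.010 for replicates 1 to 4). Whether same-numbered libraries shared a culture or a preparation was not tested. With a replicate block 1928 genes were called higher and 1209 lower, 674 for the difference with and without TNF, 2136 against ROSI, 1405 against CAP7 and 2834 without TNF. Counts of low genes limit the smallest changes that could be seen.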
